A study of Mus musculus with 15 samples.

Results

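A set of 38 genes of ribosome biogenesis and the nucleolus was followed across 15 whole tumors of the mouse pancreatic ductal adenocarcinoma line PDA30364. They were taken from a fixed list of RNA polymerase I subunits, snoRNP proteins, subunit assembly factors and nucleolar proteins, and all 38 of the 38 listed had a usable probe set among the 18193 genes that the array measured. They were listed by function, with earlier results of these data known. PDA30364 was established from a tumor of a genetically engineered mouse, and it is 1 line. Its cells were injected subcutaneously into C57BL/6-Ly5.1 mice of 6 to 12 weeks, so a tumor piece can hold host immune cells, stroma, skin and muscle next to tumor cells. Mice of the combination group (n = 4) were given daily GDC-0623, an inhibitor of MEK (MEKi), at 30 mg/kg plus the agonist antibody CD40 mIgG1. The MEKi group received GDC-0623 with control IgG (n = 3 arrays here, while the labels give 4 to 5 mice per group), the CD40 Ab group vehicle with CD40 mIgG1 (n = 4) and the control group vehicle with control IgG (n = 4). Antibodies were given on treatment days 3, 5 and 7 and 1 day before analysis, and all tumors were taken on day 26 after inoculation.

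Ribosomes are built in the nucleolus. RNA polymerase I copies the ribosomal DNA into a long precursor, box C/D and box H/ACA snoRNPs guide its methylation and pseudouridylation, and assembly factors cut and fold it into a small and a large subunit. The pathway takes a large part of the energy of a growing cell and is driven by Myc and by growth factor signaling, including the MEK/ERK pathway. Myc binds E-box motifs, and ETS family factors, several of which are substrates of ERK, bind motifs with a GGAA core.

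Promoters show how both motifs are placed in genes of this set. RefSeq promoters of build GRCm38.p6, from 250 bases before to 50 bases after an annotated transcript start, were found for 33 of the 38 genes, which had 37 listed promoters. The E-box CACGTG, which reads the same on both strands, was in a promoter of 6 of these 33 genes (18.2%), against 8.09% of 27025 genes with a listed promoter. The ETS motif CCGGAAG, searched on both strands, was in a promoter of 11 (33.3%), against 9.93% of all genes. The TATA-box letters TATAAA, on either strand, were in 3 (9.09%), against 15.7% of all genes. The E-box and ETS letters cannot overlap, and 2 genes, Nop2 and Tsr1, held both. These matches are letters in a window and not sites at which binding was measured. The promoters of 4 genes whose signals are described in the next paragraphs are given 5′ to 3′ on the strand of the gene, with the E-box and ETS letters in capitals: Pes1 (chr11:3963725-3964024, + strand), with an E-box that begins 2 bases after the start, Tsr1 (chr11:74897830-74898129, + strand), with an ETS motif 1 base before and an E-box 24 bases after it, Heatr1 (chr13:12395125-12395424, + strand), with an ETS motif 16 bases before it, and Polr1e (chr4:45018359-45018658, + strand), with the ETS letters on the other strand 25 bases after it.
Pes1: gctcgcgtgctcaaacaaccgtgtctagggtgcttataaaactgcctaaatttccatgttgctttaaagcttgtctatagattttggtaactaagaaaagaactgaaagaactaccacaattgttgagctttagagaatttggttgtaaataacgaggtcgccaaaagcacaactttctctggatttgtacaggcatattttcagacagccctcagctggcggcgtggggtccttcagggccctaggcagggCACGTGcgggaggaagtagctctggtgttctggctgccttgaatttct
Tsr1: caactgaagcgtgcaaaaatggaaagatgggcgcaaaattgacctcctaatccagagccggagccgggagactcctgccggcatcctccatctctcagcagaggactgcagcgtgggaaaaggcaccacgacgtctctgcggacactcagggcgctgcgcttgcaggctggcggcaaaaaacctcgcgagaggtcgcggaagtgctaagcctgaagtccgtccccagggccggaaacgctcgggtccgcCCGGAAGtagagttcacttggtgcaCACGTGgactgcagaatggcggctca
Heatr1: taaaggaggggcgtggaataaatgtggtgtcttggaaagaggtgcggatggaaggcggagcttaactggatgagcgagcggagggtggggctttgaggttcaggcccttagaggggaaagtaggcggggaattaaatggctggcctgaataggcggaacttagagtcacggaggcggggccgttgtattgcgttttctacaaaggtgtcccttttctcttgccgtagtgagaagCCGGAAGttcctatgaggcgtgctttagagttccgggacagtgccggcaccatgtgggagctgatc
Polr1e: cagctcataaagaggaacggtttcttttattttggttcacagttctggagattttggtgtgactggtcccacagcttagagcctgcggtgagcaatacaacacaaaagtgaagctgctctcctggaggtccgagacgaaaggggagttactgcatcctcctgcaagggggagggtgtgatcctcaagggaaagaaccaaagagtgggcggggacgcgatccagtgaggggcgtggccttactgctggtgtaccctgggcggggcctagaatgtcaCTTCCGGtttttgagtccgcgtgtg

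The values are log2 signals after robust multi-array average (RMA) normalization, and array medians lay between 5.16 and 5.24. Because probe sets bind with different strength, a signal is compared between arrays and not between genes. In a whole tumor, fewer cells of a type and less RNA per cell cannot be told apart. Mean signals over the epithelial tumor markers were 10.39 to 10.62 on combination, 10.33 to 10.88 on MEKi, 9.88 to 10.46 on CD40 Ab and 9.86 to 10.34 on control arrays, with 4 of 12 markers higher in combination and 2 higher and 2 lower in MEKi against control. Markers of some other cell types moved more. Skeletal muscle markers averaged 7.90 to 9.50 on combination arrays and 7.53 to 10.36 on MEKi arrays, against 4.61 to 6.96 on control arrays, and 13 of 14 were higher in combination and 3 in MEKi. Skin markers averaged 4.65 to 5.10 in combination and 6.11 to 6.92 in MEKi, against 4.77 to 5.76 in control. Of 12, 7 were higher in MEKi and 1 was lower in combination. All 10 fibroblast markers were higher in MEKi and 5 in combination. In combination 7 of 8 T cell and 7 of 10 macrophage markers were higher, and 1 macrophage marker was lower. In MEKi 0 of either passed as higher and 1 macrophage marker was lower. Median log2 fold changes in MEKi were 0.82 over the T cell and 0.21 over the macrophage markers. Granulocyte markers averaged 7.42 to 7.94 in combination and 8.27 to 8.72 in MEKi, against 6.24 to 6.79 in control, with 5 of 6 higher in each. Other lists held few calls. Of 8 endothelial markers, 1 was higher and 1 lower in combination, and 2 were lower in MEKi. Of 7 B cell markers, 1 was higher in combination and 0 in MEKi, and of 7 adipocyte markers 0 passed in either. MEKi replicate 1 had the highest muscle level and MEKi replicate 3 the highest mean over the 38 genes. The part of these tissues in the results below was not tested beyond the fits that carry muscle and skin levels as covariates.

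The 38 genes had opposite medians in both groups that received MEKi. Averaged over the genes, the combination arrays read 9.24, 9.23, 9.27 and 9.24, the MEKi arrays 9.49, 9.46 and 9.71, the CD40 Ab arrays 9.30, 9.48, 9.36 and 9.44, and the control arrays 9.37, 9.35, 9.37 and 9.33. Every combination array was thus below every control array, and every MEKi array above. The median log2 fold change (FC) over the genes was -0.12 in combination and 0.21 in MEKi against the same 4 controls, where the medians over all genes were -0.04 and -0.04. In combination 32 of the 38 were negative, as were 59.4% of all genes. In MEKi 34 of the 38 were positive, as were 42.6% of all genes. With limma, at an adjusted p under 0.05 over all 45037 probe sets, 7 of the 38 (Pes1, Gnl3, Wdr12, Nolc1, Ncl, Nop14 and Dkc1) were lower in combination than in control and 0 higher, and 14 had an unadjusted p under 0.05 in either direction. Of all genes, 8.72% were called lower and 10.3% higher, and 34.5% had an unadjusted p under 0.05 by limma. Another 7 (Rrp12, Ddx21, Bysl, Polr1b, Polr1e, Heatr1 and Nop16) were higher in MEKi than in control and 0 lower, with 19 at an unadjusted p under 0.05. Here 10.7% of all genes were called higher and 10.4% lower, and 36.9% had an unadjusted p under 0.05 by limma. In each comparison 7 of 38 is 18.4%, above the share of all genes called in that direction. The 38 genes had mean signals of 7.14 or more, while the median over all genes was 6.69. With only probe sets of mean 5 or more tested, 11 of the 38 were lower in combination, against 3850 of 23741 probe sets. In MEKi 8 were then higher and 1 lower, against 3138 and 3991 of those probe sets.

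**Figure D1:**
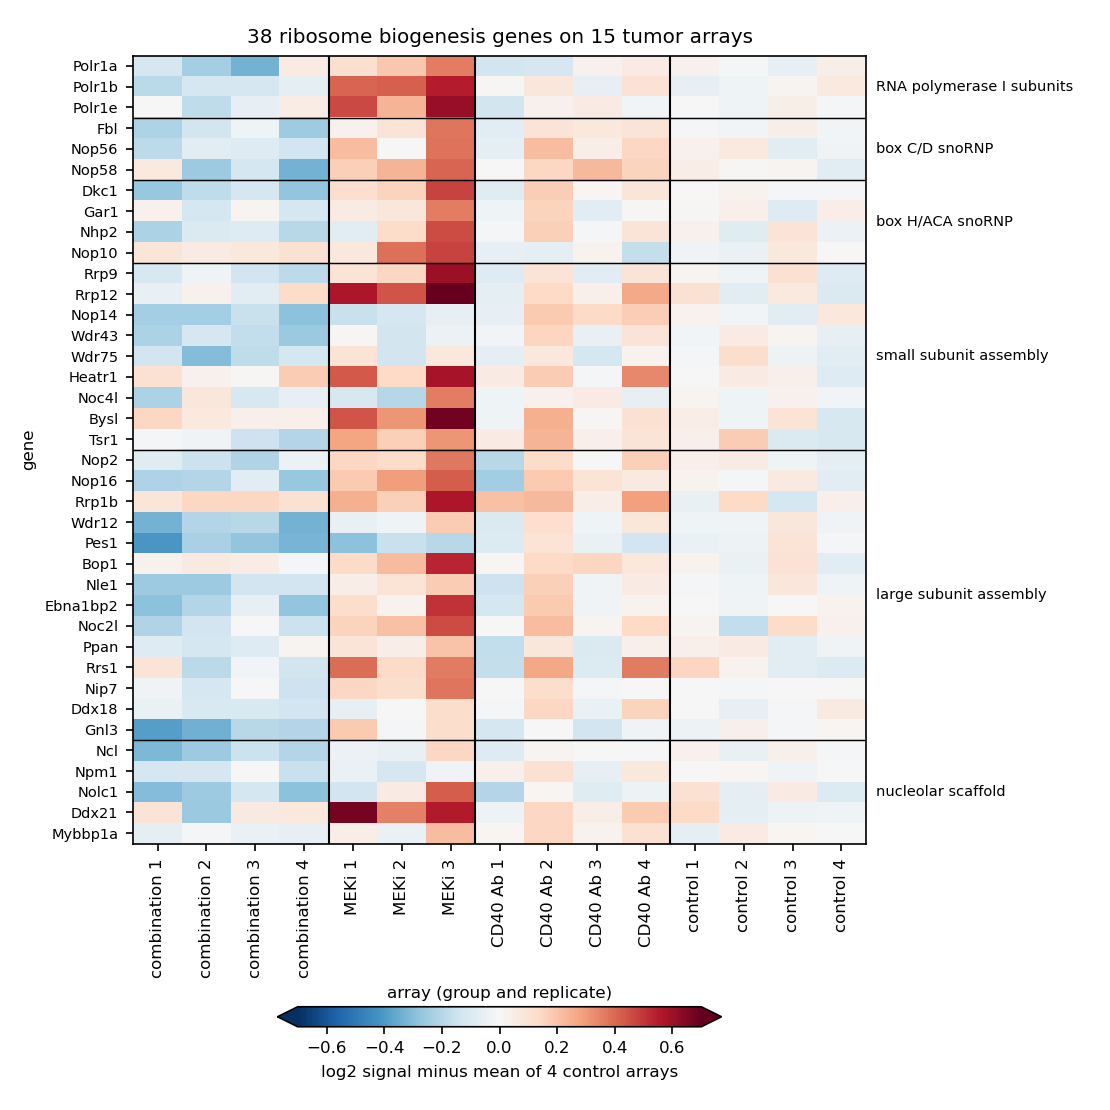
Signal of the 38 genes (rows, by role) on 15 arrays (columns, by group and replicate), as log2 signal minus the mean of the 4 control arrays, with values beyond 0.7 shown at the end of the color scale. Combination arrays are mostly below and MEKi arrays mostly above control, and MEKi replicate 3 is the highest of its group for 32 of the 38 genes.

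**Figure D2:**
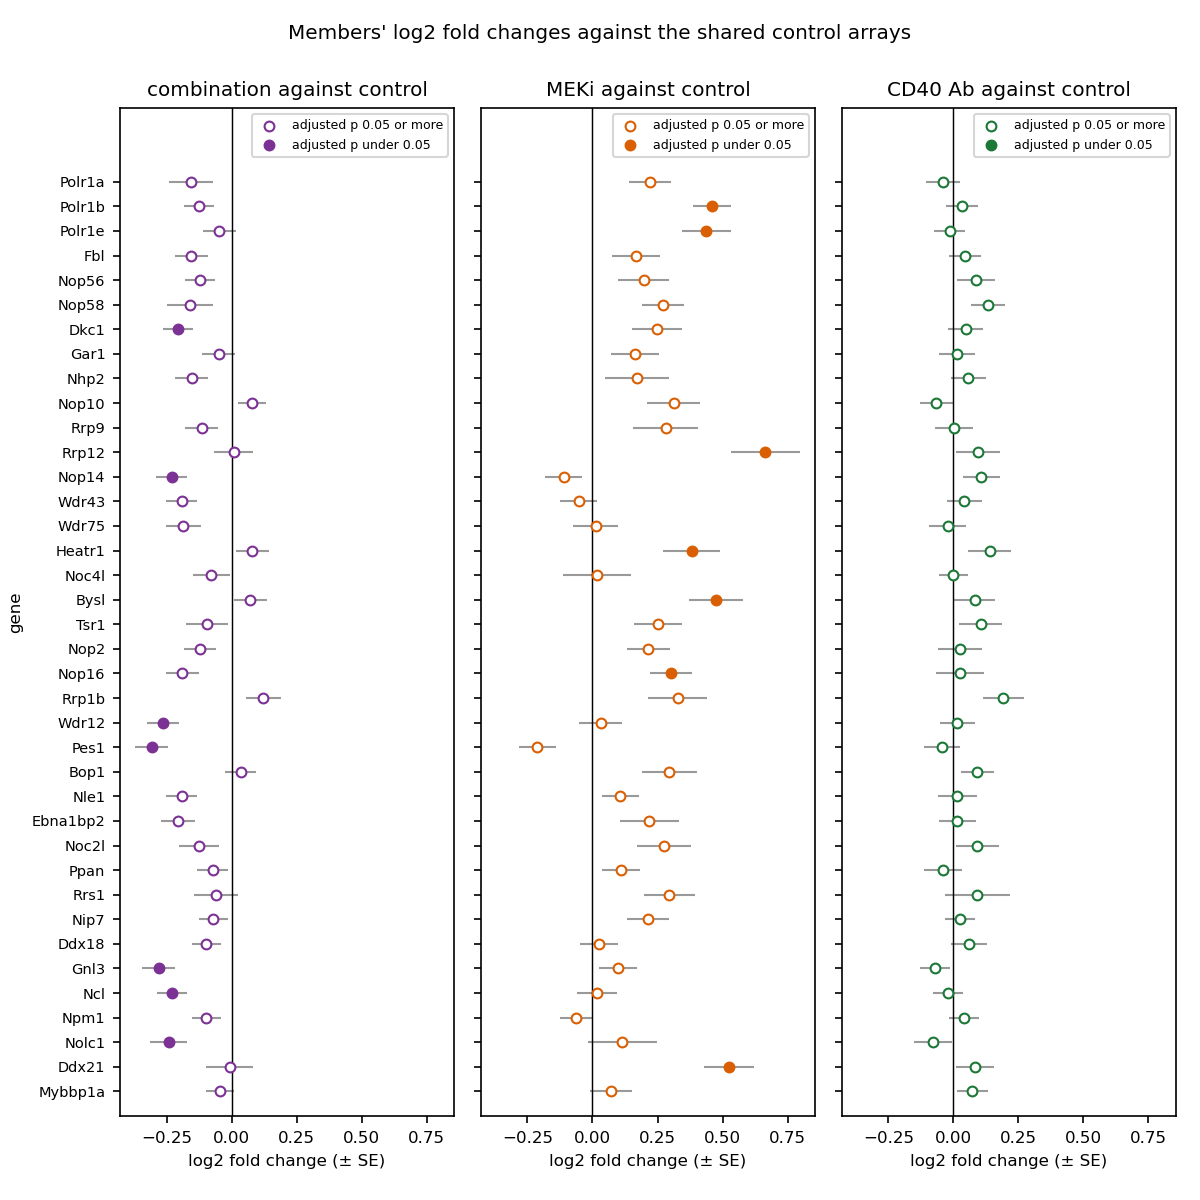
Log2 fold change with its standard error (limma) of each of the 38 genes in combination, MEKi and CD40 Ab tumors against the same 4 control arrays, with filled points at an adjusted p under 0.05. Filled points are 7 below 0 in combination, 7 above 0 in MEKi and 0 in CD40 Ab.

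RNA polymerase I was represented by its largest subunit Polr1a, the second-largest subunit Polr1b and the initiation subunit Polr1e. Polr1b had the smallest adjusted p of the 38 genes in MEKi. Its signal was 7.34, 7.41, 7.41 and 7.46 on combination arrays and 7.94, 7.95 and 8.08 on MEKi arrays, against 7.54, 7.61, 7.47 and 7.63 on CD40 Ab and 7.47, 7.50, 7.55 and 7.60 on control arrays. All MEKi arrays were above all others, and all combination arrays were below all controls. The log2 FC was 0.46 ± 0.07 (SE) in MEKi, a 1.38-fold rise (limma adjusted p = 0.00492), and -0.12 ± 0.06 in combination (adjusted p = 0.188). Polr1e read 7.65, 7.47, 7.59 and 7.70 in combination and 8.11, 7.89 and 8.26 in MEKi, against 7.65, 7.62, 7.69 and 7.64 in control. It rose in MEKi by a log2 FC of 0.44 ± 0.09 (adjusted p = 0.0175), while combination and control arrays overlapped (-0.05 ± 0.06, adjusted p = 0.675). Polr1a did not pass in either comparison, with -0.16 ± 0.08 in combination (adjusted p = 0.261) and 0.22 ± 0.08 in MEKi (adjusted p = 0.105). A second, dimmer probe set of Polr1a did fall in combination, by 0.37 on the log2 scale (adjusted p = 0.00343). Polr1c, a subunit shared with RNA polymerase III, read -0.09 ± 0.07 in combination and -0.21 ± 0.09 in MEKi (adjusted p = 0.449 and 0.160). Tcof1 (treacle), a cofactor of rRNA transcription, fell in combination (-0.28 ± 0.07, adjusted p = 0.0218) and was at 0.04 ± 0.13 in MEKi. Neither of the factors Ubtf and Rrn3 passed. Ubtf, which opens the ribosomal DNA, had log2 FCs of -0.05 ± 0.07 and 0.00 ± 0.06, and Rrn3, which brings the polymerase to the promoter and is a substrate of ERK, -0.21 ± 0.07 and 0.14 ± 0.09 (adjusted p = 0.0622 in combination and 0.318 in MEKi).

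The box C/D snoRNP proteins, which carry out 2′-O-methylation of rRNA, were below control in combination and above it in MEKi, but 0 of 3 passed in either comparison by limma, and in each 1 had an unadjusted p under 0.05. For the methyltransferase Fbl the log2 FC was -0.15 ± 0.06 in combination (adjusted p = 0.145) and 0.17 ± 0.09 in MEKi (adjusted p = 0.270). For Nop56 it was -0.12 ± 0.06 and 0.20 ± 0.10 (adjusted p = 0.209 and 0.219). Nop58, the partner of Nop56 in the core particle, read 10.03, 9.71, 9.84 and 9.63 in combination and 10.13, 10.20 and 10.37 in MEKi, against 9.96, 10.11, 10.19 and 10.12 in CD40 Ab and 10.01, 9.97, 9.98 and 9.89 in control. All MEKi arrays were above all controls (0.27 ± 0.08, adjusted p = 0.0559), and combination replicate 1 was above the highest control (-0.16 ± 0.09, adjusted p = 0.267).

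Among the box H/ACA proteins, which pseudouridylate rRNA and also hold the RNA of telomerase, the pseudouridine synthase Dkc1 lay below all controls in combination and above all controls in MEKi. It read 9.82, 9.91, 9.97 and 9.81 in combination and 10.20, 10.24 and 10.56 in MEKi, against 10.00, 10.26, 10.10 and 10.17 in CD40 Ab and 10.09, 10.11, 10.07 and 10.07 in control. Dkc1 fell in combination to 0.866-fold (log2 FC -0.21 ± 0.06, adjusted p = 0.0418), and in MEKi the log2 FC was 0.25 ± 0.10 (adjusted p = 0.124). Its other bright probe sets had like values, -0.30 and -0.21 in combination and 0.31 and 0.26 in MEKi. Nop10, the smallest protein of the particle, did not share this pattern, at 0.08 ± 0.05 in combination and 0.31 ± 0.10 in MEKi (adjusted p = 0.370 and 0.0784). Nhp2 stood at -0.15 ± 0.06 and 0.17 ± 0.12, and Gar1 at -0.05 ± 0.06 and 0.16 ± 0.09, and neither passed.

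The 9 genes of small subunit assembly split by comparison. Rrp12, which acts in maturation and export of pre-ribosomes, changed most of the 38 in MEKi, with 6.93, 7.01, 6.91 and 7.11 on combination arrays and 7.55, 7.42 and 7.97 on MEKi arrays, against 6.92, 7.12, 7.02 and 7.25 on CD40 Ab and 7.09, 6.91, 7.05 and 6.88 on control arrays. MEKi stood above every other array, and the other groups overlapped. The rise was 1.58-fold (log2 FC 0.66 ± 0.13, adjusted p = 0.0132), against 0.01 ± 0.07 in combination (adjusted p = 0.961). Bysl, needed for release of the small subunit precursor, read 8.86, 8.78, 8.75 and 8.75 in combination and 9.15, 9.02 and 9.39 in MEKi, against 8.76, 8.68, 8.81 and 8.60 in control. It rose in MEKi by 0.47 ± 0.10 (adjusted p = 0.0179), and combination and control overlapped (0.07 ± 0.06). Heatr1, a scaffold of the processome that also acts in rRNA transcription, rose in MEKi by 0.38 ± 0.11 (adjusted p = 0.0490) on arrays at 8.98, 8.69 and 9.13, against 8.46 to 8.61 in control, and had 0.08 ± 0.06 in combination (adjusted p = 0.455). The Heatr1 call in MEKi held in 5 of 20 alternatives, and its dimmer probe sets did not pass there (0.05 and 0.13, limma adjusted p = 0.850 and 0.264). Second probe sets of Bysl and Polr1e did (0.53 and 0.54, limma adjusted p = 0.0192 and 0.00779).

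Nop14 went the other way. This processome factor read 8.26, 8.26, 8.34 and 8.21 in combination and 8.34, 8.38 and 8.44 in MEKi, against 8.44, 8.68, 8.63 and 8.67 in CD40 Ab and 8.52, 8.48, 8.42 and 8.57 in control. Combination arrays were below all CD40 Ab and control arrays, and MEKi overlapped control at 1 array. Nop14 fell in combination (-0.23 ± 0.06, adjusted p = 0.0299) and was negative in MEKi (-0.11 ± 0.07, adjusted p = 0.331). Its partners in the processome, Wdr43 and Wdr75, were below all controls in combination without passing (-0.19 ± 0.06 and -0.18 ± 0.07, adjusted p = 0.0561 and 0.107), and near 0 in MEKi (-0.05 ± 0.07 and 0.01 ± 0.09). For Rrp9, the U3 snoRNP protein, Noc4l and the GTPase-like Tsr1 the log2 FCs were -0.12 ± 0.06, -0.08 ± 0.07 and -0.10 ± 0.08 in combination and 0.28 ± 0.13, 0.02 ± 0.13 and 0.25 ± 0.09 in MEKi, with adjusted p of 0.106 or more.

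Of the 14 genes of large subunit assembly, 3 fell in combination (21.4%, against 8.72% of all genes) and 1 rose in MEKi (7.14%, against 10.7%). Pes1, Bop1 and Wdr12 form the PeBoW complex, which processes the precursor of the large subunit rRNA. Pes1 read 9.08, 9.26, 9.21 and 9.16 in combination and 9.20, 9.33 and 9.29 in MEKi, against 9.39, 9.58, 9.44 and 9.35 in CD40 Ab and 9.44, 9.45, 9.58 and 9.47 in control. Both groups that received MEKi were below all controls, which in MEKi was so for Pes1 alone of the 38. Its fall in combination was the largest of the 38, to 0.808-fold (-0.31 ± 0.06, adjusted p = 0.0114), and in MEKi it stood at -0.21 ± 0.07 (adjusted p = 0.0875). A dimmer second probe set of Pes1 had positive values in both comparisons, 0.23 and 0.19, that did not pass. Wdr12 read 7.93, 8.06, 8.07 and 7.93 in combination, against 8.23, 8.24, 8.34 and 8.24 in control, without overlap. It fell in combination (-0.27 ± 0.06, adjusted p = 0.0198), as did a second probe set (-0.31, adjusted p = 0.0191), and was at 0.03 ± 0.08 in MEKi. Bop1 was at 0.04 ± 0.06 in combination and 0.30 ± 0.11 in MEKi (adjusted p = 0.745 and 0.101).

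Gnl3 (nucleostemin), a GTPase of the nucleolus that is high in stem and tumor cells, read 9.63, 9.68, 9.82 and 9.81 in combination and 10.20, 10.00 and 10.14 in MEKi, against 9.90, 10.01, 9.88 and 9.99 in CD40 Ab and 9.98, 10.05, 10.00 and 10.03 in control. All combination arrays were below all others. It fell to 0.824-fold of control (-0.28 ± 0.06, adjusted p = 0.0172), with 0.10 ± 0.07 in MEKi (adjusted p = 0.412). Nop16, a nucleolar protein of large subunit precursors and a target of Myc, read 8.40, 8.41, 8.54 and 8.35 in combination and 8.80, 8.91 and 9.04 in MEKi, against 8.37, 8.80, 8.71 and 8.68 in CD40 Ab and 8.64, 8.60, 8.68 and 8.54 in control. It rose in MEKi (0.30 ± 0.08, adjusted p = 0.0396), where all arrays were above control, and in combination had -0.19 ± 0.06 (adjusted p = 0.0770). Rrp1b had the highest log2 FC of the 38 in combination (0.12 ± 0.07, adjusted p = 0.271) and 0.33 ± 0.11 in MEKi (adjusted p = 0.0902). The other genes of the group, Nop2, Nle1, Ebna1bp2, Noc2l, Ppan, Rrs1, Nip7 and Ddx18, ranged over -0.20 to -0.06 in combination and 0.03 to 0.30 in MEKi, and none of these 8 passed by limma, with 2 at an unadjusted p under 0.05 in combination (Nle1 and Ebna1bp2) and 4 in MEKi (Nop2, Noc2l, Rrs1 and Nip7). Dimmer second probe sets of Nip7 and Rrs1 did pass in MEKi (0.54 and 0.30, adjusted p = 0.00826 and 0.0483).

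The 5 nucleolar scaffold proteins and cofactors held 2 genes that fell in combination (40%, against 8.72% of all genes) and 1 that rose in MEKi (20%, against 10.7%). Ncl (nucleolin), an abundant chaperone of rRNA, read 11.82, 11.88, 11.98 and 11.93 in combination and 12.09, 12.08 and 12.28 in MEKi, against 12.04, 12.15, 12.13 and 12.13 in CD40 Ab and 12.16, 12.08, 12.17 and 12.12 in control. Combination arrays were below all others (-0.23 ± 0.06, adjusted p = 0.0285), and MEKi and control overlapped (0.02 ± 0.08). Nolc1, a chaperone of snoRNPs, read 9.83, 9.88, 10.01 and 9.85 in combination and 10.00, 10.19 and 10.56 in MEKi, against 10.24, 10.07, 10.19 and 10.04 in control. It fell in combination (-0.24 ± 0.07, adjusted p = 0.0465) and in MEKi was spread over controls (0.12 ± 0.13, adjusted p = 0.603). Of 2 dimmer probe sets, 1 differed from this, at 0.04 in combination and 0.54 in MEKi (adjusted p = 0.846 and 0.0395), and the other was near it, at -0.29 and 0.04 (adjusted p = 0.0832 and 0.890). Ddx21, a helicase that couples RNA polymerase I and II transcription, read 8.67, 8.32, 8.64 and 8.65 in combination and 9.25, 8.93 and 9.13 in MEKi, against 8.54, 8.72, 8.62 and 8.76 in CD40 Ab and 8.71, 8.51, 8.54 and 8.55 in control. MEKi arrays were above all others, a 1.44-fold rise over control (0.53 ± 0.10, adjusted p = 0.00884), and combination and control overlapped (-0.01 ± 0.09, adjusted p = 0.968). A dimmer second probe set of Ddx21 was at 0.38 in MEKi and did not pass (limma adjusted p = 0.0917). Npm1 (nucleophosmin) stood at -0.10 ± 0.06 in combination and -0.06 ± 0.06 in MEKi, and Mybbp1a at -0.04 ± 0.05 and 0.07 ± 0.08, and neither passed.

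**Figure D3:**
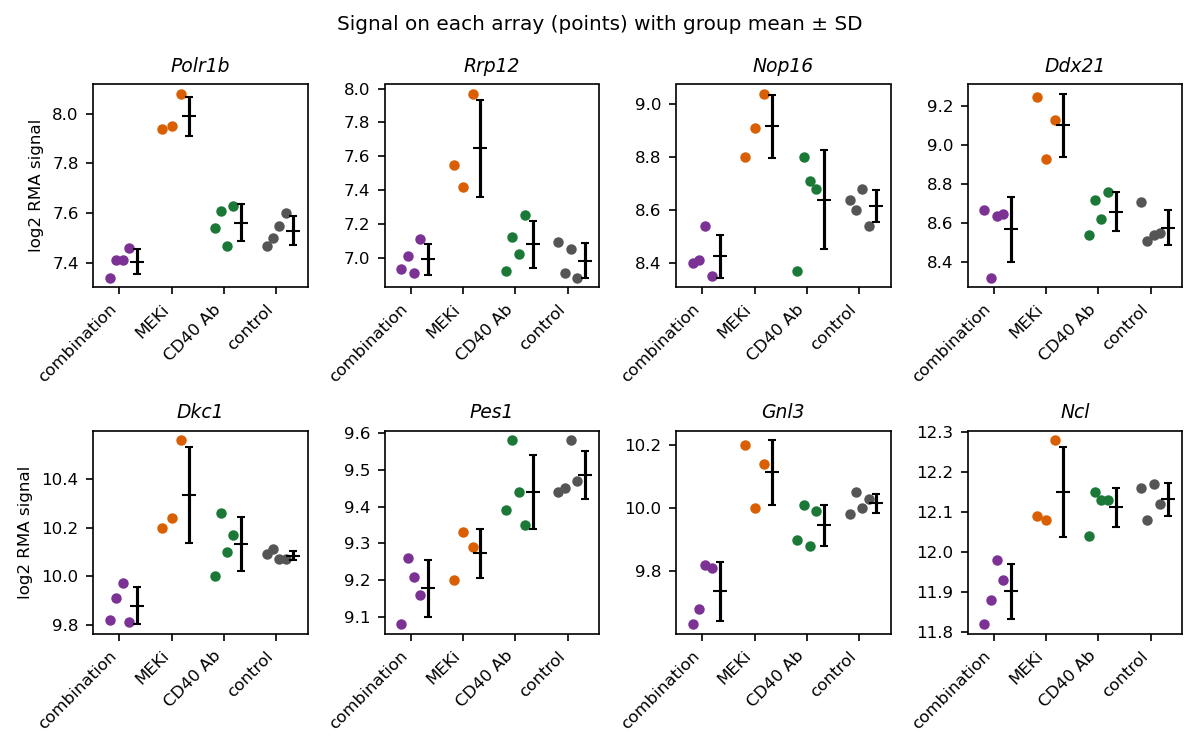
Log2 RMA signal of 8 genes on each array (points) with the group mean ± SD beside them (n = 4, MEKi n = 3), each gene on its own scale that does not start at 0. MEKi arrays are above all others for Polr1b, Rrp12 and Ddx21, and combination arrays are below all others for Polr1b, Dkc1, Gnl3 and Ncl.

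Counted over the 38 genes, all combination arrays were below all control arrays for 14 (36.8%) and above for 0, against a background of 14.4% of genes lower without overlap. All MEKi arrays were above all controls for 16 (42.1%) and below for 1, against 16.4% of genes higher without overlap. With CD40 Ab alone no gene of the set was separated from control. Its median log2 FC was 0.036, 0 passed by limma (smallest adjusted p = 0.445, for Rrp1b at 0.19 ± 0.08), 1 had an unadjusted p under 0.05, and CD40 Ab and control arrays overlapped for all 38. Of all genes, 1.06% were called, 11.5% had an unadjusted p under 0.05 by limma and 7.69% did not overlap in that comparison. CD40 Ab replicates 2 and 1 were at the ends of their group, replicate 2 the highest for 24 genes and replicate 1 the lowest for 24.

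Direct comparison of combination with MEKi asked whether adding CD40 Ab to the inhibitor changed these genes. All 38 had a lower mean in combination, as against 48.5% of all genes, with a median log2 FC of -0.32 (all genes 0.01), and for 27 of the 38 (71.1%) no combination array reached a MEKi array, against 10.8% of all genes. Past the threshold by limma were 3 (7.89%), Polr1b (-0.58 ± 0.07, adjusted p = 0.00730), Rrp12 (-0.66 ± 0.13, adjusted p = 0.0449) and Nop16 (-0.49 ± 0.09, adjusted p = 0.0271), where 2.65% of all genes were called lower. An unadjusted p under 0.05 by limma was found for 27 of the 38 and for 21.3% of all genes. Against CD40 Ab, combination was lower for 37 of the 38 and for 58.6% of all genes, with medians of -0.16 and -0.03. The exception of the 38 was Nop10. Nop14 alone (2.63%) passed (-0.34 ± 0.07, limma adjusted p = 0.0329) where 2.52% of all genes did in that direction. By limma 20 of the 38 had an unadjusted p under 0.05, as did 25.4% of all genes. For 12 (31.6%) the combination arrays were below all CD40 Ab arrays, against 10.1% of all genes.

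The difference between the effect of CD40 Ab with MEKi and its effect without was tested as an interaction on all 15 arrays. It was negative for all 38 genes (50.2% of all genes), with a median of -0.36, and passed for 10 (26.3%), where 2.56% of all genes were called negative. These were Polr1b (-0.62 ± 0.09, adjusted p = 0.00214), Rrp12 (-0.75 ± 0.16, adjusted p = 0.0206), Ddx21 (-0.62 ± 0.14, adjusted p = 0.0250), Nop58 (-0.56 ± 0.13, adjusted p = 0.0270), Dkc1 (-0.50 ± 0.12, adjusted p = 0.0346), and then Polr1e, Nop16, Tsr1, Noc2l and Bysl with adjusted p of 0.0410 to 0.0488. The set spans polymerase subunits, both kinds of snoRNP and both subunits. Dimmer probe sets of Dkc1 (limma adjusted p = 0.0391 and 0.0206) and Polr1e (0.0195) were also negative and passed. Those of Ddx21, Bysl, Tsr1 and Nop16 were negative and did not pass (limma adjusted p = 0.0640, 0.248, 0.102 and 0.583). The dimmer probe set of Noc2l was positive, at 0.42, and did not pass (limma adjusted p = 0.272). The interaction, combination against MEKi and MEKi against control share the 3 MEKi arrays, so a high MEKi group enters all 3 comparisons.

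These counts rested on few arrays. Combination against control gave 2 to 4 called genes when any 1 array other than combination replicate 3 was left out, and 9 without that replicate. MEKi against control gave 3 without control replicate 2, 4 without control replicate 1 or 4, 5 without control replicate 3 or MEKi replicate 3, 7 without MEKi replicate 2 and 9 without MEKi replicate 1, the array with the most muscle signal. Combination against MEKi gave 5 without MEKi replicate 1, 3 without MEKi replicate 2, and 1 (Polr1b) without MEKi replicate 3, where the median moved to -0.22, or without any 1 combination array. The MEKi median was 0.12 without MEKi replicate 3. Against CD40 Ab, Nop14 passed without CD40 Ab replicate 1 or combination replicate 3 and 0 genes passed without any other single array (10 to 20 at an unadjusted p under 0.05 by limma). The interaction called 2 without MEKi replicate 3 (Polr1b and Rrp12) or CD40 Ab replicate 4, 13 without MEKi replicate 2, 10 without MEKi replicate 1 or CD40 Ab replicate 1, and 3 to 7 without another array. With muscle and skin levels as covariates on all 15 arrays, combination against control called 0 (6 at an unadjusted p under 0.05, median -0.08), MEKi against control 1 and combination against MEKi 1, each time Polr1b, and the interaction again Polr1b alone. Medians were 0.25 in MEKi against control, -0.31 in combination against MEKi and -0.34 in the interaction. Over all probe sets this fit called 892 in combination against control and 1816 in MEKi against control, against 6450 and 7162 without the covariates, 490 against 1264 in combination against MEKi, and 628 against 1441 in the interaction.

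Animal numbers fell in a series under 10000 and one from 10000 on. All 4 combination mice were in the first and all 3 MEKi mice in the second, with 3 control and 2 CD40 Ab mice in the first and 1 and 2 in the second, so the series and the contrast of combination with MEKi cannot be told apart within these groups. Within the series under 10000, combination against control called 4 genes with a median of -0.13. With the series as a covariate on all 15 arrays, 4 genes were called in combination against control, 6 in MEKi against control, 1 in combination against MEKi and 0 in the interaction (21 at an unadjusted p under 0.05 by limma), with medians of -0.12, 0.20, -0.32 and -0.35. Over all probe sets the interaction called 84 with this covariate, against 1441 without it.

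The wider pathway was read from lists chosen with earlier results of these data known. Of 105 further ribosome biogenesis genes, 22 were lower (21.0%, against 8.72% of all genes) and 0 higher in combination (median -0.13), and 10 were higher (9.52%, against 10.7%) and 4 lower in MEKi (median 0.01). Utp4, a processome protein, fell most in combination (-0.43 ± 0.06, adjusted p = 0.00145). The AAA ATPase Mdn1, which strips factors from precursors of the large subunit, rose most in MEKi (0.64 ± 0.11, adjusted p = 0.00850), and Sbds, a late factor of the large subunit, fell most there (-0.48 ± 0.06, adjusted p = 0.00244), as it did in combination (-0.41 ± 0.06, adjusted p = 0.00293). Of 44 cytosolic ribosomal protein genes, 3 were lower in combination (6.82%) and 2 in MEKi (4.55%), below the 8.72% and 10.4% of all genes called lower, with Rpl14 at -0.38 ± 0.09 in combination (adjusted p = 0.0241) and Rps25 at -0.51 ± 0.10 in MEKi (adjusted p = 0.0113). Of 20 RNA polymerase III genes, 2 were lower in combination (10.0%) and 3 in MEKi (15%), against the same 8.72% and 10.4%, led in both by Gtf3c3, a subunit of its factor TFIIIC (-0.31 ± 0.05 and -0.71 ± 0.08, adjusted p = 0.00502 and 0.00130).

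Myc, the transcription factor that drives this program, read 10.01, 9.94, 10.10 and 9.76 in combination and 10.23, 10.24 and 10.28 in MEKi, against 10.19, 10.58, 10.15 and 10.19 in CD40 Ab and 10.24, 10.26, 10.26 and 10.23 in control. All combination arrays were below all others, a fall of 0.29 ± 0.08 on the log2 scale against control (adjusted p = 0.0296), and MEKi arrays overlapped control (0.00 ± 0.06, adjusted p = 0.984). Of 11 genes of the Myc network, 2 were lower in combination, and in MEKi 3 were higher, with Mxd1 at 0.75 ± 0.16 (adjusted p = 0.0155), and 3 lower, with Mxi1 at -1.07 ± 0.29 (adjusted p = 0.0405). In polyamine and nucleotide synthesis (22 genes), 2 rose and 4 fell in combination, with Ppat at 0.34 ± 0.06 and Shmt1 at -0.54 ± 0.08 (adjusted p = 0.00870 and 0.00228). In MEKi 3 rose and 2 fell, with the spermidine synthase Srm at 0.62 ± 0.10 (adjusted p = 0.00603) and Mthfd2 at -0.74 ± 0.16 (adjusted p = 0.0191).

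Counts over lists are read against the shares of all genes called, 8.72% lower and 10.3% higher in combination and 10.4% lower and 10.7% higher in MEKi. Genes of cell division were lower in both groups that received MEKi. Of 23 mitosis and G2/M genes, 16 were lower in combination (median -0.69) and 15 in MEKi (median -1.26), led by Kif20a in combination (-0.92 ± 0.24, adjusted p = 0.0311) and Ccnb2 in MEKi (-1.83 ± 0.43, adjusted p = 0.0249). The mean over these 23 genes was 7.05 on MEKi replicate 1, the array with the most muscle signal, and 8.30 and 8.49 on the other MEKi arrays. It was 7.99 to 8.87 on combination and 8.93 to 9.49 on control arrays. Mki67 stood at -0.58 ± 0.16 in combination and -0.80 ± 0.25 in MEKi (adjusted p = 0.0408 and 0.0662). Of 18 ERK output genes, 12 were lower in combination, and 4 were lower and 1 higher in MEKi. The ERK phosphatase Dusp4 fell in both (-1.06 ± 0.14 and -1.13 ± 0.21, adjusted p = 0.00115 and 0.00880), Dusp6 fell in combination (-0.48 ± 0.07, adjusted p = 0.00167) and not past the threshold in MEKi (-0.05 ± 0.14, adjusted p = 0.842), and Spry1 rose in MEKi (0.70 ± 0.13, adjusted p = 0.01004). Of 17 p53 targets, 4 rose and 1, Gtse1, fell in combination, and 4 rose and 2 fell in MEKi. Cdkn1a (p21), which halts the cell cycle, was up in both (0.76 ± 0.17 and 1.03 ± 0.13, adjusted p = 0.0176 and 0.00169), Btg2 rose in MEKi (1.10 ± 0.16, adjusted p = 0.00327), and Pmaip1 fell there (-0.60 ± 0.16, adjusted p = 0.0400). Gtse1 fell by 0.43 ± 0.13 on the log2 scale in combination (adjusted p = 0.0493).

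**Figure D4:**
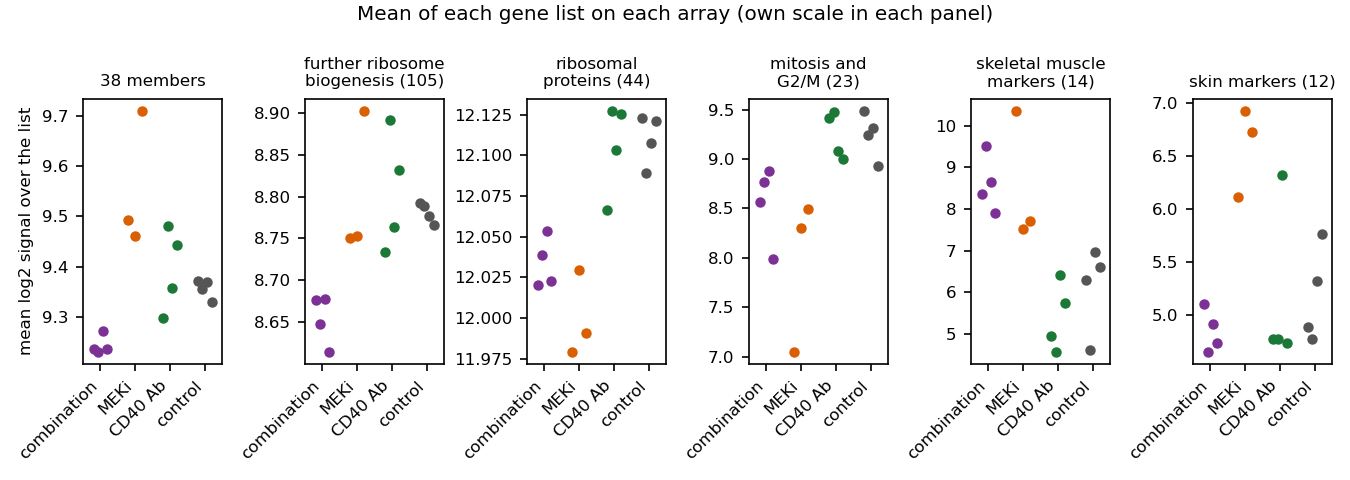
Mean log2 signal on each array (points) over the 38 genes and 5 other lists, with the number of genes measured in each title and a separate scale in each panel. The mean over the 38 genes is above all controls on MEKi arrays and below all other arrays in combination, whereas the mitosis list is lower than control in both groups, and the muscle markers are higher in both.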

How the data were processed

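Pieces of 15 tumors, 1 array each, were profiled on Affymetrix mouse expression arrays after 3′ IVT labeling. For each probe set the deposited table holds a log2 signal, normalized by the authors with RMA (background correction, quantile normalization and summarization). Its version is not given in the sources used here. Of 45101 probe sets, 64 Affymetrix controls were left out, which left 45037 for the tests. The annotation gave 1 symbol to 34945, several to 932 and none to 9160. A gene was read from the brightest, by mean, of its probe sets that carry no other symbol.

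Groups were compared with limma 3.58.1 (R 4.3.3), two-sided moderated tests on the arrays of each pair, with Benjamini-Hochberg adjustment over all tested probe sets, and called at an adjusted p under 0.05. The interaction used all 15 arrays. Exact permutation tests used Python 3.11.15 with SciPy 1.17.1. Each array is 1 mouse, and the number of arrays limits precision. The genes, the lists and the rule for naming genes were chosen with earlier results of these data known. Named in full were the 2 genes of each role with the largest change in combination and in MEKi, genes called in the interaction (the 5 with the smallest adjusted p), genes against the direction of the median in MEKi, the called genes of each further list with the largest rise and fall, and 7 regulators and readouts of the pathway. Alternatives covered the fit, normalization, filters on probe sets, the threshold, the animal number series, muscle and skin levels, and each array left out.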

Additional observations from a re-analysis of the deposited data

Results flagged for a closer look

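In 6 of 114 groups of 4 arrays, 1 array stood apart from the other 3 by Dixon's criterion. Chance flags about 1 in 20 such groups. Ddx21 read 8.32 on combination replicate 2 against 8.64 to 8.67 on the other combination arrays, Fbl 11.01 on 1 CD40 Ab array and 11.13 on 1 control array, Wdr12 8.34 on 1 control array, and Nip7 9.92 on 1 CD40 Ab array and 9.78 on 1 control array, where the other 3 controls were all 9.80.

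The interaction, the effect of CD40 Ab with MEKi less its effect without, passed by limma for 10 genes. These were Polr1b (-0.62), Rrp12 (-0.75), Ddx21 (-0.62), Nop58 (-0.56), Dkc1 (-0.50), Polr1e (-0.47), Nop16 (-0.52), Tsr1 (-0.45), Noc2l (-0.49) and Bysl (-0.48). The highest MEKi array, replicate 3, enters each of these tests. All 4 combination mice were in the lower animal number series and all 3 MEKi mice in the upper. CD40 Ab and series thus cannot be told apart between these groups. With the series as a covariate, the interaction called 0 of the 38 genes. Over all probe sets it then called 84, against 1441 without the covariate.

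The 3 control probe sets for mouse 18S rRNA, outside the tests, averaged 13.2 on combination, 13.3 on MEKi, 13.0 on CD40 Ab and 12.9 on control arrays. Combination exceeded control by 0.38 on the log2 scale without overlap (exact two-sided permutation p = 0.0286, which no split of 4 and 4 arrays can go under, and 0.0714 after adjustment over 5 comparisons). MEKi exceeded control by 0.42 (exact p = 0.0571, adjusted 0.0952). The relation of these signals to rRNA content was not tested.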

How the results depend on the processing

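Every one of the 28 differences past the threshold in the 6 comparisons kept its direction in each of 644 alternative values, and 393 of these also stayed past the threshold. Settings that changed only the threshold, the estimate of the spread or the other probe sets tested could not move a log2 FC. Its direction was fixed there in advance. For combination against control, the series under 10000 alone was the same fit as leaving out control replicate 4. Counts of called genes moved more. Combination against control (7 of 38) gave 11 with median centring (median -0.16), without dim probe sets or with 1 probe set per gene, 4 without probe sets that can match several transcripts, with the animal series as a covariate or within the series under 10000, 0 at an adjusted p under 0.01, and 0 with muscle and skin levels as covariates (median -0.080), and 2 to 9 when 1 array was left out. MEKi against control (7) gave 15 from a fit of all arrays (14 higher and 1 lower), 11 from averaging the probe sets of a gene, 2 at an adjusted p under 0.01, 1 with muscle and skin levels, and 3 to 9 with 1 array left out (medians 0.12 to 0.26). Combination against MEKi (3) gave 21 from a fit of all arrays, 7 with an intensity trend and robust prior, 6 with median centring or without dim probe sets, 8 with 1 probe set per gene, 10 from probe set means, 1 at an adjusted p under 0.01, 1 with the animal series and 1 with muscle and skin levels, and 1 to 5 with 1 array left out (medians -0.37 to -0.22). Combination against CD40 Ab (1) gave 4 from a fit of all arrays or without dim probe sets, 3 with the trend, probe set means or the animal series, 2 with median centring or 1 probe set per gene, 0 at an adjusted p under 0.01, 0 within the series under 10000, 0 with muscle and skin levels, and 0 to 1 with 1 array left out. The interaction (10) gave 1 at an adjusted p under 0.01, 0 with the animal series, 1 with muscle and skin levels, and 2 to 13 with 1 array left out. Counts over all 45037 probe sets moved as well. In MEKi against control, the fit of all arrays called 9843 instead of 7162 in the main fit. It called 3663 instead of 1264 in combination against MEKi and 2407 instead of 2019 in combination against CD40 Ab. In combination against control it called 5021 instead of 6450, and median centring called 7613. The cause of these moves was not tested.

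Replicate numbers stand in the array titles, which state no pairing. Deviations from group means correlated above 0.1 in 9 of 21 same-numbered pairs (r = -0.28 to 0.21), and the median r of other pairs was -0.01. Of 15 arrays, 6 were nearest in another group to an array of their own number. These values do not settle whether the numbers pair arrays. With the replicate number as a block (replicate block), 3 genes were called in combination against control, 2 in MEKi against control, 0 in combination against MEKi, 0 in combination against CD40 Ab, 0 in CD40 Ab against control and 6 in the interaction (by limma, 25, 15 and 1 genes had an unadjusted p under 0.05 where 0 were called).

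Depth is not a limit of arrays. What limited these values was 3 or 4 arrays a group, the closeness of the called differences to the threshold, and probe sets of 1 gene that did not always match: of 36 other probe sets of 27 genes with a mean of 5 or more, 30 had the sign of the one used in combination against control and 26 in MEKi against control.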
